A study of Homo sapiens with 12 samples.

Results

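The inflammatory chemokines described here are the 9 genes CXCL8, CXCL1, CXCL2, CXCL3, CXCL10, CXCL16, CCL2, CCL3 and CCL4, taken by gene symbol from the 20003 genes with a value in every sample. The data are mRNA-seq of 12 samples from 2 human leukemia cell lines. NB4 is a line of acute promyelocytic leukemia (APL) whose fusion gene is PML-RARα. Kasumi-1 is an acute myeloid leukemia line with the t(8;21) translocation and the AML1-ETO fusion gene. From each line there were 3 control samples in DMSO and 3 samples incubated with 1 μM of the compound OGP46, numbered 1 to 3 in each group, and the study asked which genes respond to OGP46, a compound it examined as an inducer of differentiation. The labels and the methods give 48 h of incubation for all samples, whereas a figure legend of the study gives a longer time. Each line is a single cell line, and the labels do not say whether the 3 samples of a group were separate cultures. A legend on the sequencing speaks of independent experiments without tying the numbered samples to them, so the p-values measure the spread between these samples, whose source is not given.

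Chemokines are small secreted proteins that draw leukocytes along a gradient by binding G protein-coupled receptors. CXCL8 (interleukin-8) and its relatives CXCL1, CXCL2 and CXCL3 attract neutrophils through CXCR2, and CXCL8 also through CXCR1. CXCL10 is an interferon-inducible ligand of CXCR3 on activated T cells, CXCL16 is made as a membrane-bound protein that binds CXCR6 and is shed by the proteases ADAM10 and ADAM17, CCL2 attracts monocytes through CCR2, and CCL3 and its relative CCL4 attract monocytes and lymphocytes, CCL3 through CCR1. Maturing myeloid cells are a known source of several of them, and NF-kB, AP-1 and C/EBP factors are the textbook activators of the CXCL8 gene.

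The promoters of the neutrophil-attracting genes show what these genes have in common in sequence beside the expression values that follow. The lines below give the 150 bases before the RefSeq transcription start of each of the 6 members with an entry in the promoter table used here (GRCh38.p14), written 5′ to 3′ on the strand of the gene. CXCL16, CCL2 and CCL4 are named only. Capitals mark matches on either strand to a loose form of the NF-kB motif (GGG and CC with any 5 bases between them) or to GGAATTTCC, letters chosen after reading the CXCL8 promoter.
CXCL8 promoter, chr4:73740419-73740568, plus strand: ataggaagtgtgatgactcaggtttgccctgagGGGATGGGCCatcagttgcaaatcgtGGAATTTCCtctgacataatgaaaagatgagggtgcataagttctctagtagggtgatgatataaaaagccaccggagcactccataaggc
CXCL1 promoter, chr4:73869243-73869392, plus strand: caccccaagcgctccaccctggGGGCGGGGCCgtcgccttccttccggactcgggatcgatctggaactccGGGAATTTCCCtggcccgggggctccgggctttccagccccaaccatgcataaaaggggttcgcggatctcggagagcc
CXCL2 promoter, chr4:74099196-74099345, minus strand: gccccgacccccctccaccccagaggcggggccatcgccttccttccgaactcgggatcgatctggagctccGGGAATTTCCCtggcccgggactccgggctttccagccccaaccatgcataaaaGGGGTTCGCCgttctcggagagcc
CXCL3 promoter, chr4:74038690-74038839, minus strand: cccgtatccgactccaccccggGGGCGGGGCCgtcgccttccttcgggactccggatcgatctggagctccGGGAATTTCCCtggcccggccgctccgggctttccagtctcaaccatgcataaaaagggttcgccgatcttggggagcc
CXCL10 promoter, chr4:76023498-76023647, minus strand: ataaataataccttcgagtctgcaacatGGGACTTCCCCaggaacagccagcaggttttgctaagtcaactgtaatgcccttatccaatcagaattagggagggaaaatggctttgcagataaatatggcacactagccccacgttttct
CCL3 promoter, chr17:36090144-36090293, minus strand: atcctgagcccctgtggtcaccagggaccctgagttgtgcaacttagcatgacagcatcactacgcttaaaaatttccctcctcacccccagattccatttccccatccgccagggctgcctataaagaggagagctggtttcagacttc

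CXCL8, CXCL1, CXCL2 and CXCL3 held GGAATTTCC on the coding strand, starting 91, 78, 77 and 78 bases before the start. CXCL10 held the same letters on the other strand, 176 bases before its start and outside the stretch shown. Of 27305 promoter windows of 300 bases (250 before and 50 after the start), 0.48% held them. The letters were taken from CXCL8, and the windows of CXCL1, CXCL2 and CXCL3 are much alike, so this share carries no test. The looser form matched 57.9% of all windows, so a match to it sets a gene apart little. In CXCL1, CXCL2 and CXCL3 the letters sit inside a longer run in which a match on each strand overlaps. CXCL8 further held the AP-1 letters TGANTCA, 137 bases before its start and in 7.75% of all windows, and TATAAA, 31 bases before its start and in 12.0%. CCL3 held TATAAA 29 bases before its start and the C/EBP letters TTGCNNAA, which 10.5% of windows hold, 116 bases before it, and no match to either NF-kB form. CXCL2 held TTGCNNAA 188 bases before its start. Each motif was searched on both strands, and a match in letters is a description and not a shown binding site. Over the 300-base windows, CXCL1 and CXCL3 were 82.5% identical, CXCL2 and CXCL3 73.8% and CXCL1 and CXCL2 71.9%, against 45.2% to 52.6% between CXCL8 and the other members with a window.

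By position (RefSeq, GRCh38.p14), CXCL8 at chr4:73740569-73743716 and CXCL1 at chr4:73869393-73871308 lie on chromosome 4 with CXCL3 at chr4:74036589-74038689, CXCL2 at chr4:74097040-74099195 and CXCL10 at chr4:76021118-76023497. CCL2 at chr17:34255285-34257203, CCL3 at chr17:36088256-36090143 and CCL4 at chr17:36103827-36105614 lie on chromosome 17, as does CXCL16 at chr17:4733533-4739928. CCL3 and CCL4 have near copies beside them, and reads that match both cannot be assigned with certainty. Of the 50-base stretches of the coding transcripts, 9.88% of those of CCL3 recur in its copy at chr17:36194869-36196758, which the files list as CCL3L3, and 20.1% of those of CCL4 recur in CCL4L2. Between CXCL1 and CXCL2 this share was 5.73%, and between CXCL2 and CXCL3 4.62%.

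The values are FPKM, in which fragments are divided by exon length and by the mapped total, so that levels are per length and can be compared between genes. The sum of FPKM per sample was 248207 to 310262, and 9339 to 9746 genes reached 1 FPKM. The number of reads behind each value is unknown, and an exact 0 can be a missed estimate, so a gene is described as listed at 0. The t(8;21) markers, RUNX1T1 among them, summed to 242 to 310 FPKM in Kasumi-1 and to 0.730 to 3.87 FPKM in NB4, highest in NB4 control sample 3. The promyelocyte markers summed to 1596 to 3954 FPKM in NB4, of which MPO gave 1510 to 3323 FPKM. They summed higher in Kasumi-1 (7770 to 11926 FPKM), so they do not single out the APL line. ELANE, also in that list, was at most at 14.5 FPKM in NB4 and at 1035 FPKM or more in Kasumi-1. Both NB4 samples numbered 2 stood apart in several chemokines, and the samples are therefore described pair by pair, each OGP46 sample beside the control of the same number. This choice was made with the members' values known, so their blocked p-values are not independent of it. Whether the numbers pair the samples was checked separately, across all genes tested.

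The chemokine profile differed between the untreated lines. In such bulk samples, fewer cells making a transcript and less of it per cell cannot be told apart. NB4 control cells held transcripts of CXCL8, CCL2, CXCL10, CCL3 and CCL4, whereas in Kasumi-1 controls CXCL8, CXCL2, CXCL1 and CXCL3 were measured and CCL3 and CCL4 were listed at 0 in every sample. In NB4 controls the order by mean was CXCL8 with 5.85 ± 3.63 FPKM (SD, n = 3), CCL2 with 3.81 ± 1.30, CXCL10 with 2.69 ± 2.25, CCL3 with 1.95 ± 1.52, CCL4 with 0.828 ± 0.840, CXCL16 with 0.391 ± 0.233, CXCL2 with 0.369 ± 0.167, CXCL3 with 0.234 ± 0.170 and CXCL1 with 0.0317 ± 0.0548. Only the last pair of neighbours, CXCL3 and CXCL1, did not overlap over the 3 samples. In Kasumi-1 controls CXCL8 was at 1.91 ± 1.35 FPKM, CXCL2 at 0.919 ± 0.348, CXCL1 at 0.822 ± 0.0621 and CXCL3 at 0.665 ± 0.0392, and the ranges of CXCL8, CXCL2 and CXCL1 overlapped from each to the next. CXCL10 and CCL2 were above 0 in 1 Kasumi-1 control, sample 2, and CXCL16 in 1, sample 3.

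In limma's test of NB4 against Kasumi-1 controls on log2(FPKM + 0.1), with an adjusted p below 0.05 and a log2 difference of at least 0.58 as the threshold, 8 of the 9 members passed. This threshold was passed by 52.4% of the 12302 genes tested (22.7% higher and 29.7% lower in NB4), so a difference between the lines is the usual case. The equal-sum scaling turned that split over, to 3585 genes higher and 3004 lower in NB4, with no member changing its direction. CXCL1 was lower in NB4 by 2.88 on the log2 scale (standard error 0.28, adjusted p = 1.52e-05), CXCL3 by 1.31 (0.32, 0.00454) and CXCL2 by 1.12 (0.31, 0.010). CXCL10, CXCL16, CCL2, CCL3 and CCL4 were higher in NB4, with adjusted p between 3.66e-05 for CCL2 and 0.0296 for CCL4. Their Kasumi-1 values are at or next to 0, so no fold is given. These 5 passed the filter of 0.1 FPKM only through NB4, so a higher level in NB4 was fixed in advance and their calls carry no test. CXCL1 passed the filter only through Kasumi-1, and the same holds for its call. CCL4 lost its call in 5 of the 6 fits that left out 1 sample, all but the one without NB4 control sample 2. With pseudocount 1, CXCL2, CXCL3 and CXCL16 stayed below the fold threshold. CXCL8 did not pass, with a log2 difference of 1.5 (standard error 0.64, adjusted p = 0.0582), and passed under each of the 3 scalings and without NB4 control sample 2 (2.22, adjusted p = 0.00147) or Kasumi-1 control sample 3 (2.01, 0.0246). Its sample values overlapped between the lines, since NB4 control sample 2, at 1.67 FPKM, lay below Kasumi-1 control sample 3, at 3.41 FPKM.

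**Figure D1:**
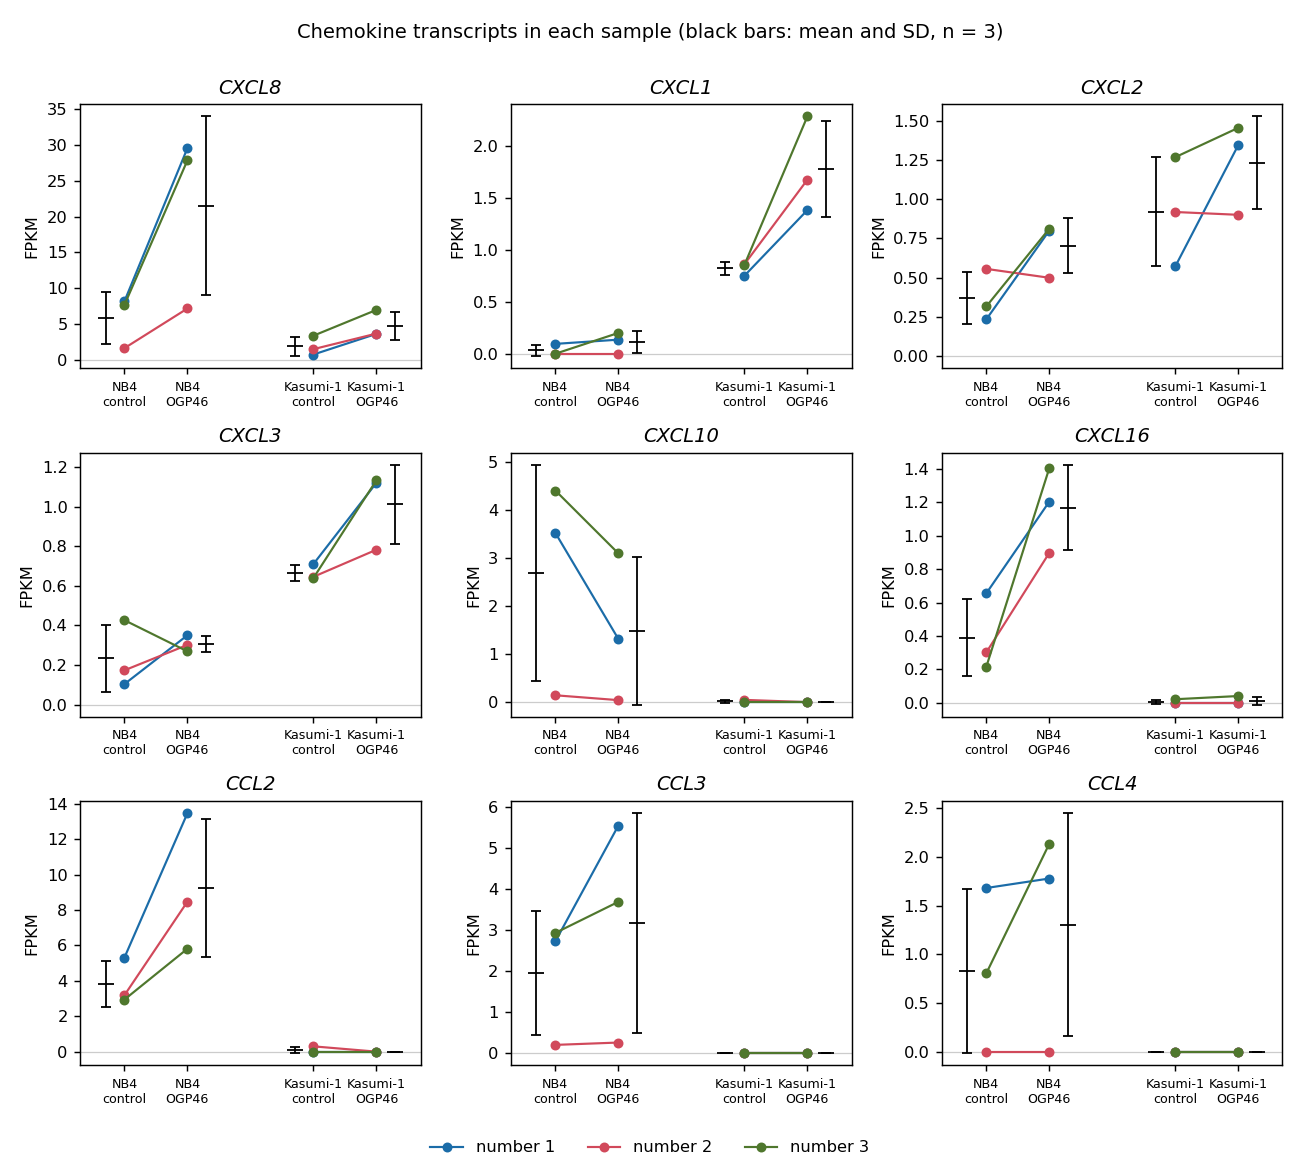
FPKM of each chemokine (vertical axes, linear) in the control and OGP46 samples of NB4 and Kasumi-1, with lines joining samples of the same number and black bars for mean and SD (n = 3). CXCL8 was higher with OGP46 in all pairs of both lines, CXCL10 was lower in all NB4 pairs, and number 2 of NB4 was low for CXCL8, CXCL10, CCL3 and CCL4.

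In NB4 cells incubated with OGP46, the neutrophil attractant CXCL8, the CXCR6 ligand CXCL16 and the monocyte attractant CCL2 rose in every same-numbered pair. CCL3 did so too, below the fold threshold, and 52.9% of all genes tested were higher in all pairs. The CXCR3 ligand CXCL10 fell in every pair, as did 6.32% of all genes tested. CXCL2 rose in 2 pairs and fell in 1, and passed only narrowly with the pairing (adjusted p = 0.0473 in limma). None of the 5 members called with the pairing passed with all samples when it was left out, except CXCL16 with a larger pseudocount. Of the 8 members that averaged 0.1 FPKM or more in NB4, 0 were called by limma without the replicate number as a block, where 1.56% of 11750 genes were called (183 genes, 0.111% lower and 1.45% higher, with 663 past the same fold at an unadjusted p below 0.05). With the block, 5 of the 8 were called, 4 higher and 1 lower, where 6.21% of genes were called, 5.06% higher and 1.15% lower. The members were chosen with earlier results of these data known, so this count carries no test. Same-numbered samples mostly deviate together in these data, so the blocked values stand beside the others below. In NB4, pair 3 (r = 0.20) lay below the highest correlation of differently numbered samples (0.22). The low values of number 2 in several of these chemokines were known when the fits were planned. The median change of the 8 members was 0.67 on the log2 scale, and that of all tested genes 0.18. After median centring the members' median was 0.45 and that of all tested genes −0.04, and the block then called 3 members higher and 1 lower, beside 188 genes higher and 203 lower in place of 595 and 135. With the block and no filter on low values CXCL8 and CCL2 passed, and CXCL16 (adjusted p = 0.0787 in limma), CXCL10 (0.0871) and CXCL2 (0.201) did not. All log2 values are on the log2(FPKM + 0.1) scale, which understates the change of a low gene.

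CXCL8 was at 8.19, 1.67 and 7.69 FPKM in NB4 control samples 1, 2 and 3 and at 29.5, 7.20 and 27.8 FPKM in OGP46 samples 1, 2 and 3. The groups overlapped, because OGP46 sample 2 lay below control samples 1 and 3, but within the pairs the ratio was narrow, from 3.60 to 4.31. On the log2 scale its change was 1.91, with a standard error of 0.69 and an adjusted p of 0.121 in limma without the block and of 0.09 and 4.71e-07 with it. Without both samples numbered 2 the blocked value was 1.84. With no block, CXCL8 passed without OGP46 sample 2 alone (2.57, adjusted p = 0.0411) and did not pass without control sample 2 alone (1.18). Both of these fits split pair 2. CXCL8 made up 26.8% to 39.0% of the summed FPKM of the 9 members in the controls and 40.8% to 61.5% with OGP46. That sum was 22.5, 6.22 and 19.7 FPKM in the controls and 54.1, 17.7 and 45.3 FPKM with OGP46.

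The 3 relatives of CXCL8 were low in NB4. CXCL2 was at 0.235, 0.556 and 0.317 FPKM in control samples 1 to 3 and at 0.80, 0.499 and 0.812 FPKM with OGP46. It was higher in pairs 1 and 3 and slightly lower in pair 2, which is also where the groups overlap. On the log2 scale its change was 0.81 (standard error 0.29, adjusted p = 0.121 in limma and 0.0473 under the block), and the call under the block was lost with median centring (0.59, adjusted p = 0.239) and without the samples numbered 1 (0.50) or 3 (0.65), while it was 1.28 without those numbered 2. CXCL3 was at 0.103, 0.173 and 0.426 FPKM in the controls and at 0.350, 0.301 and 0.269 FPKM with OGP46. Pair 3 went down and the other pairs up, and a change of 0.40 in log2 terms passed neither with nor without the block (adjusted p = 0.340 and 0.457 in limma). CXCL1 was listed at 0 in control samples 2 and 3 and OGP46 sample 2 and reached 0.201 FPKM at most, below the filter for testing.

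CXCL10 was at 3.53, 0.143 and 4.41 FPKM in the NB4 controls and at 1.32, 0.0418 and 3.10 FPKM with OGP46. It was lower in all 3 pairs, at 0.292 to 0.703 times the control, while samples 2 of both groups were more than 10 times below the others. The change in log2 terms was −0.88, with a standard error of 1.33 and an adjusted p of 0.674 in limma without the block and of 0.17 and 0.00526 with it. Without the pairing its direction depended on single samples, from −2.23 without control sample 2 to 0.43 without OGP46 sample 2. Without both samples numbered 2, the blocked value was −0.93 (adjusted p = 2.13e-05).

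CXCL16 was at 0.655, 0.302 and 0.216 FPKM in the controls and at 1.2, 0.898 and 1.40 FPKM with OGP46. All OGP46 samples lay above all controls, and the pair ratios ran from 1.84 to 6.50. Its change of 1.45 on the log2 scale had a standard error of 0.32 and an adjusted p of 0.0584 in limma, just short of the threshold, and of 0.24 and 0.00201 with the block. It passed with no block when OGP46 sample 2 was left out (1.61, adjusted p = 0.0404) or with pseudocount 1 (0.65, 0.0471). The transcripts of its sheddases were at 17.6 ± 1.5 (ADAM10) and 6.16 ± 0.537 (ADAM17) FPKM in NB4 controls and at 22.8 ± 2.76 and 8.94 ± 0.918 FPKM with OGP46 (SD, n = 3), and their log2 changes of 0.37 and 0.53 were below the fold threshold.

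CCL2 was at 5.31, 3.18 and 2.94 FPKM in the controls and at 13.5, 8.47 and 5.81 FPKM with OGP46. The groups did not overlap, each pair rose by a ratio of 1.98 to 2.66, and number 2 was not low for this gene. The change in log2 terms was 1.22, with a standard error of 0.31 and an adjusted p of 0.0702 in limma without the block and of 0.11 and 4.24e-05 with it. CXCL16 and CCL2 were the 2 members whose OGP46 samples all lay above the controls, a pattern that 32.7% of all genes tested showed.

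CCL3 was at 2.72, 0.197 and 2.93 FPKM in the controls and at 5.55, 0.254 and 3.69 FPKM with OGP46. Its pair ratios of 1.26 to 2.04 were all above 1, but the log2 change of 0.53 stayed below the fold threshold (adjusted p = 0.775 in limma and 0.0340 under the block). Without the samples numbered 2 the blocked value was 0.66 (adjusted p = 0.00468), past both thresholds, and without those numbered 3 it was 0.63 (0.0215). CCL4 was at 1.68, 0 and 0.805 FPKM in the controls and at 1.78, 0 and 2.13 FPKM with OGP46. It was listed at 0 in both samples numbered 2, and its log2 change of 0.46 passed neither with nor without the block (adjusted p = 0.182 and 0.829), while without the samples numbered 2 the blocked value was 0.69 (0.0114). Leaving out single samples without the pairing moved CCL3 between −0.57 and 1.76 and CCL4 between −0.76 and 1.91. The copy CCL3L3 was at 2.39, 1.13 and 1.26 FPKM in the controls and at 3.76, 0.982 and 3.17 FPKM with OGP46, and was not called. CCL4L2 stayed below 0.5 FPKM in every sample.

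In the count of pairs, 4 of the 8 tested members were higher with OGP46 in all 3 pairs and 1 was lower, whereas 52.9% of all genes tested were higher in all pairs and 6.32% lower. The count of pairs alone therefore does not set the members apart from other genes.

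**Figure D2:**
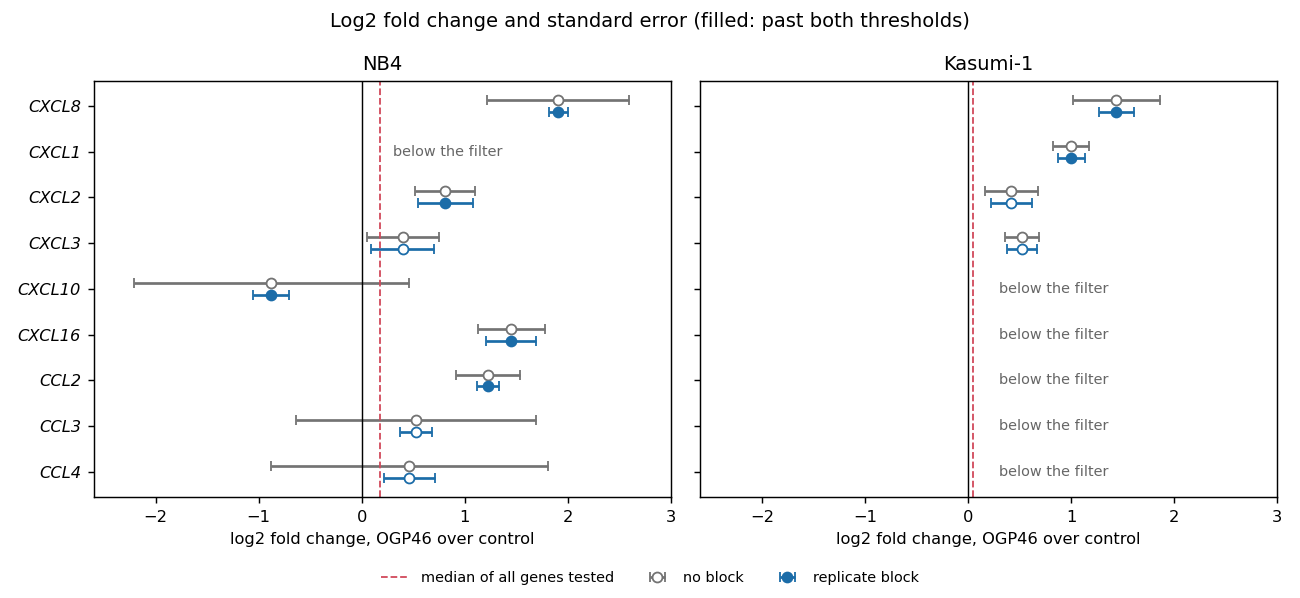
Log2 fold change of OGP46 over control on the log2(FPKM + 0.1) scale (horizontal axis) for each member in NB4 and Kasumi-1, with the standard error, without (grey) and with (blue) the replicate number as a block. Filled points passed both thresholds, 5 members in NB4 and 2 in Kasumi-1, all with the block, and the dashed line is the median of all genes tested.

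In Kasumi-1 cells incubated with OGP46, CXCL8 and CXCL1 rose when same-numbered samples were compared. CXCL3 did so too, below the fold threshold, and 31.7% of all genes tested were higher in all pairs. Of the 9 members, 4 reached the mean of 0.1 FPKM and were tested, and CXCL10, CXCL16, CCL2, CCL3 and CCL4 did not. Without the block 0 of the 4 were called by limma, where 0.0338% of 11835 genes were called (4 genes, 0.0169% higher and 0.0169% lower, with 143 past the same fold at an unadjusted p below 0.05). With the block 2 were called, both higher, where 0.617% of genes were called, 0.27% higher and 0.346% lower. This count carries no test either, since the members were chosen with earlier results of these data known. The median log2 fold change was 0.76 for the 4 members and 0.05 for all genes tested.

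CXCL8 was at 0.788, 1.53 and 3.41 FPKM in Kasumi-1 control samples 1 to 3 and at 3.66, 3.70 and 7.0 FPKM with OGP46. Every OGP46 sample lay above every control, and the ratio within pairs ran from 2.05 to 4.65. The change in log2 terms was 1.44, with a standard error of 0.42 and an adjusted p of 0.164 in limma without the block and of 0.17 and 0.00505 with it. Leaving out 1 pair moved the blocked value between 1.12 and 1.65.

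CXCL1 was at 0.751, 0.861 and 0.855 FPKM in the controls and at 1.38, 1.68 and 2.29 FPKM with OGP46. The groups were apart and the controls close to each other, with ratios within pairs of 1.84 to 2.67. On the log2 scale its change was 1.00 (standard error 0.17, adjusted p = 0.0647 in limma and 0.00759 under the block). Tested with the block but without the filter on low values, neither CXCL8 nor CXCL1 passed (adjusted p = 0.185 for both).

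CXCL3 was at 0.710, 0.646 and 0.639 FPKM in the controls and at 1.12, 0.782 and 1.13 FPKM with OGP46, again with groups apart. Its change of 0.52 on the log2 scale was below the fold threshold (adjusted p = 0.183 in limma and 0.0773 under the block), and it passed under the block without the samples numbered 2 (0.67, adjusted p = 0.0493). CXCL2 was at 0.572, 0.918 and 1.27 FPKM in the controls and at 1.35, 0.900 and 1.45 FPKM with OGP46. Its groups overlapped, pair 2 did not go up, and the log2 change of 0.42 did not pass (adjusted p = 0.451 in limma and 0.234 under the block). CXCL8, CXCL1 and CXCL3 were thus 3 of 4 members with all OGP46 samples above the controls, which 17.4% of all genes tested showed, and the same 3 were higher in all pairs, as were 31.7% of genes, against 13.8% lower in all pairs.

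The other members were at or near 0 in Kasumi-1. CXCL16 was listed at 0 except for 0.0218 FPKM in control sample 3 and 0.0410 FPKM in OGP46 sample 3. CCL2 was at 0.299 FPKM in control sample 2 and CXCL10 at 0.0474 FPKM in the same sample, and both were listed at 0 in the other 5.

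Whether OGP46 acted differently on the members in NB4 and Kasumi-1 was tested by the interaction of line and treatment over 12309 genes. Of the 9 members, 0 were called by limma, where 0% of genes were called (0 genes, with 1348 at an unadjusted p below 0.05), and 0 with the block, where 1.93% were called. For CXCL8 the change in NB4 minus that in Kasumi-1 was 0.47 log2 units (standard error 0.95, adjusted p = 0.865, and 0.24 and 0.329 with the block). This difference did not pass, and without NB4 control sample 2 it was −0.26 with no block. CXCL16 had a difference of 1.38 (adjusted p = 0.265, 0.0847 with the block) and CCL2 one of 1.89 (0.341, 0.0741 with the block). Both lie next to 0 in Kasumi-1, and the difference for CCL2 fell to 1.22 without Kasumi-1 control sample 2, the only Kasumi-1 sample in which it was above 0. The differences for CCL3 and CCL4 are the NB4 fold changes themselves, since no Kasumi-1 sample had a value above 0 for either.

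The NB4 samples numbered 2 differed from the others in a way that ran through several members. On the log2(FPKM + 0.1) scale, number 2 lay below the mean of numbers 1 and 3 of its group by 2.18 in the controls and 1.98 with OGP46 for CXCL8. The same differences were −4.06 and −3.91 for CXCL10, −3.30 and −3.71 for CCL3 and −3.67 and −4.36 for CCL4. These 4 of the 8 tested members were at least 1 log2 unit lower in number 2 in both groups, as were 123 (1.05%) of all genes tested. For number 1 such genes were 0.153% and for number 3 0.0681%, with 0 members each. CCL2 did not share this (−0.30 and −0.06), nor did CXCL16 (−0.28 and −0.49), and CXCL2 was higher than the others in the control (0.81) and lower with OGP46 (−0.60). The members were chosen with this pattern known, so it is a description of these samples and carries no test.

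Some regulators of chemokine genes were low in the same samples. Of 22 regulators of chemokine genes, 8 were at least 1 log2 unit lower in number 2 of NB4 in both groups, as were 1.05% of all genes tested. The list was chosen with earlier results of these data known, so this count carries no test. TNFAIP3, the NF-kB feedback inhibitor A20, was at 13.2, 1.57 and 13.3 FPKM in the controls and at 14.0, 2.25 and 16.3 FPKM with OGP46. The differences of number 2 were −2.99 and −2.70 for TNFAIP3, −2.26 and −1.82 for NFKBIZ, −2.05 and −1.51 for RELB, −1.95 and −1.83 for NFKB2 and −1.42 and −1.67 for NFKBIA, the inhibitor IκBα. JUN, an AP-1 subunit, and the cytokines TNF and IL1B completed the 8. Among the NF-kB subunits, RELA was level (−0.01 and 0.07), and NFKB1 (−0.61 and −0.55) and REL (−0.27 and −0.30) stayed short of 1 log2 unit. TNFAIP3, NFKBIZ, NFKBIA, JUN, RELA, NFKB1, REL, CCR10, ADAM10 and ADAM17 were named after their values were seen. Of the other chemokine ligands CCL4L2, and of the receptors CCR10, were low in the same way, 1 of 8 and 1 of 10 tested.

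Some cell type markers moved with these samples too. The promyelocyte list summed to 2612, 3954 and 3340 FPKM in NB4 control samples 1, 2 and 3 and to 1596, 2823 and 2438 FPKM with OGP46. This sum, most of it MPO, was highest in number 2 of each group and lower with OGP46 in every pair. It was also lower with OGP46 in every Kasumi-1 pair. CD33 of that list, named after its values were seen, went the other way and was higher in every pair of both lines. In NB4 it was at 7.49, 9.02 and 7.72 FPKM in the controls and at 9.39, 10.9 and 9.58 FPKM with OGP46. ELANE was highest in number 3 of both NB4 groups. CTSG, a granule protease of that list named after its values were seen, was at 18.2, 86.3 and 29.5 FPKM in the NB4 controls and at 5.82, 40.7 and 9.45 FPKM with OGP46. The monocyte and macrophage list summed to 1.47 to 2.70 FPKM in NB4 controls and to 2.01 to 5.57 FPKM with OGP46, lowest in number 2 of each group, with FCGR3A, MRC1 and CD163 at 0 in all 6 samples. The stromal and epithelial list, mostly KRT18 and EPCAM, summed to 6.77 to 12.5 FPKM in NB4 controls and 7.71 to 16.6 FPKM with OGP46, highest in number 2 of each group, while COL1A1 stayed at most at 0.0142 FPKM. The T cell list, which CD3D makes up almost alone, summed to 13.5 to 20.4 and 22.5 to 34.7 FPKM, with CD2 at 0. The B cell list gave 0.870 to 2.08 FPKM over the 12 samples with MS4A1 at 0, and the erythroid list at most 0.184 FPKM. The part of these markers in the chemokine values was not tested.

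**Figure D3:**
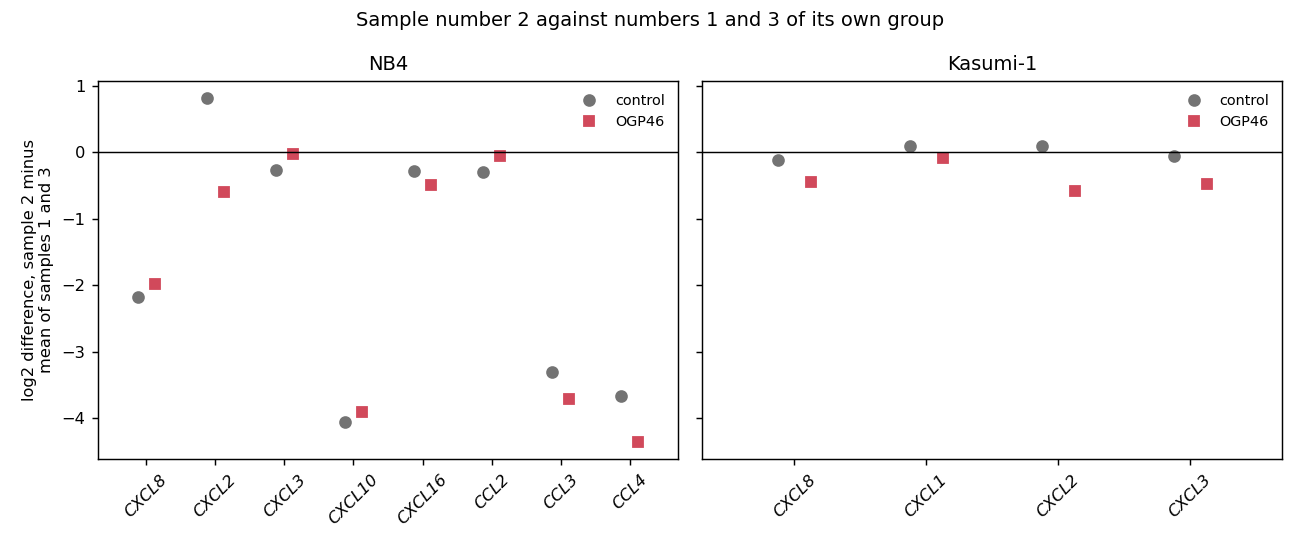
Log2 difference of sample 2 from the mean of samples 1 and 3 of its own group (vertical axis) for the tested members, controls as circles and OGP46 samples as squares, in NB4 and Kasumi-1. In NB4, CXCL8, CXCL10, CCL3 and CCL4 lie about 2 to more than 4 log2 units below 0 in both groups, and the lowest Kasumi-1 point is at −0.58.

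Receptors for the members were mostly scarce. CXCR1 was listed at 0 in 11 of 12 samples. CXCR2 was at 0.651 ± 0.0732 FPKM in NB4 controls and 0.597 ± 0.162 with OGP46, and at 1.21 ± 0.226 and 1.33 ± 0.258 in Kasumi-1 (SD, n = 3 each), with no call. CXCR3, the CXCL10 receptor, was at 1.03 ± 0.148 FPKM in NB4 controls and 0.707 ± 0.129 with OGP46. Its log2 change of −0.49 was below the fold threshold, and it passed with the block after median centring (−0.71, adjusted p = 0.0173). CXCR6, the CXCL16 receptor, was at most at 0.0810 FPKM in NB4 and was listed at 0 in every Kasumi-1 sample.

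Of the 23 receptors listed, 10 were tested in NB4. CCR1, a receptor of CCL3, was at 3.73, 3.73 and 2.57 FPKM in the controls and at 7.91, 6.15 and 5.76 FPKM with OGP46. It rose in every pair, by 0.97 on the log2 scale (adjusted p = 0.0383 in limma and 2.23e-04 under the block). CCR1 was the only receptor called without the block, where 1.56% of all genes tested were called. Median centring without the block took that call away (0.75, adjusted p = 0.173 in limma), with 0 genes called in NB4. With centring added to the block CCR1 kept its call (0.75, 0.00690). CCR2, the receptor of CCL2, was at 1.68, 2.68 and 1.31 FPKM in the controls and at 0.825, 1.42 and 0.747 FPKM with OGP46. It was lower in every pair while its ligand was higher, a log2 change of −0.85 (adjusted p = 0.114 in limma and 0.00139 under the block). CCRL2, an atypical receptor, passed with the block alone (0.61, adjusted p = 0.0481), and not with median centring added. The block thus called 2 receptors higher and 1 lower, where 5.06% of all genes tested were higher and 1.15% lower. In Kasumi-1, 6 receptors were tested and 0 called, with or without the block.

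Of the 39 other chemokine ligands listed, 37 were in the files and 8 were tested in NB4, with 0 called without the block. With it CCL20, a ligand of CCR6, was higher (0.89, adjusted p = 0.00822 in limma) and CCL1, a ligand of CCR8, was lower (−1.10, 0.0165). Of all genes tested, 5.06% were called higher and 1.15% lower with the block. With median centring added, CCL20 lost its call (0.67, adjusted p = 0.0726). CCL20 was at 3.18, 1.38 and 2.36 FPKM in the controls and at 3.66, 4.21 and 4.58 FPKM with OGP46, and CCL1 stayed below 0.6 FPKM. The most abundant chemokine in both lines, CCL5, named after its values were seen, was at 71.8 ± 7.07 FPKM in NB4 controls, far above CXCL8, and at 98.0 ± 12.6 with OGP46. Its change of 0.44 on the log2 scale was below the fold threshold (adjusted p = 0.0692 in limma and 0.00622 under the block). In Kasumi-1, 4 other ligands were tested and 0 called.

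All 22 regulators were tested in both lines. In NB4, CEBPB, a C/EBP factor, and ZFP36, which speeds the decay of AU-rich mRNAs such as those of chemokines, were called without the block, with log2 fold changes of 0.82 (adjusted p = 0.0289 in limma) and 0.99 (0.0434). Of all genes tested, 1.45% were called higher in that fit. Median centring without the block took both calls away (0.60, adjusted p = 0.155 in limma, and 0.77, 0.169), with 0 genes called in NB4. With the block 8 were higher and 0 lower, where 5.06% of all genes tested were called higher and 1.15% lower. The list was chosen with earlier results of these data known. The 8 were CEBPB, ZFP36, its relative ZFP36L1 (1.61), the NF-kB subunits NFKB2 (1.03) and RELB (0.78), the AP-1 subunit FOS (0.85) and the cytokines IL1B (1.97) and TNF (0.66), with adjusted p in limma between 3.27e-06 for IL1B and 0.00270 for RELB. Median centring with the block left 6 of the calls and took away RELB and TNF. The median log2 fold change of the 22 was 0.44, beside 0.18 over all genes tested. In Kasumi-1, 0 regulators were called in either fit, with a median of 0.20 beside 0.05.

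**Figure D4:**
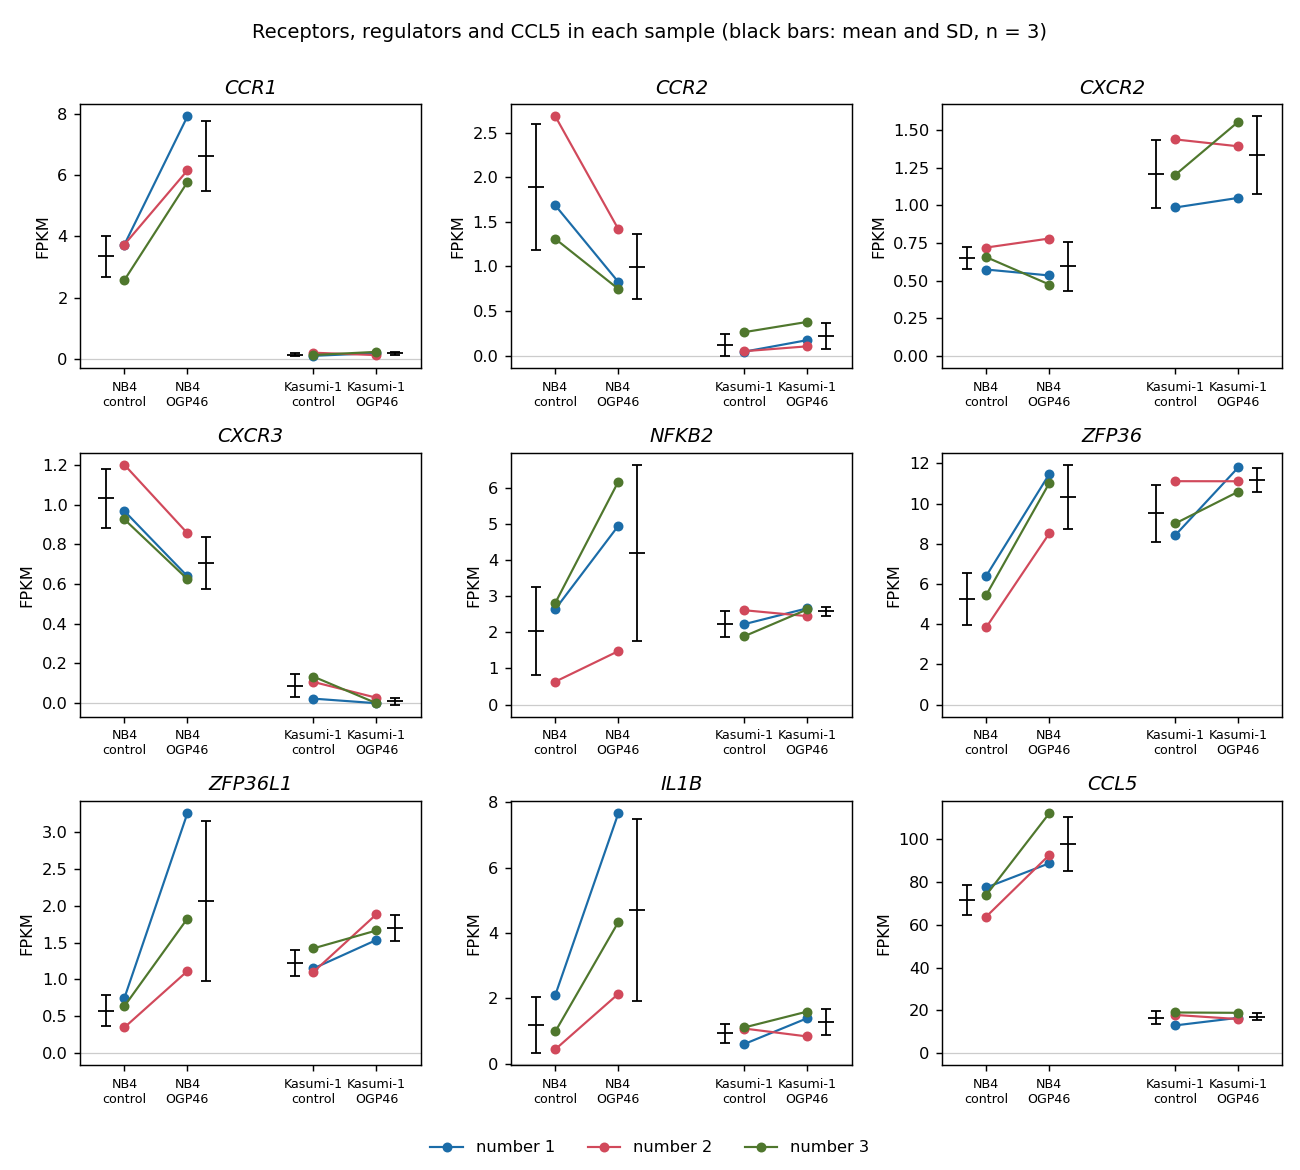
FPKM (vertical axes, linear) of the receptors CCR1, CCR2, CXCR2 and CXCR3, the regulators NFKB2, ZFP36, ZFP36L1 and IL1B and the ligand CCL5 in each sample, with lines joining samples of the same number and black bars for mean and SD (n = 3). CCR1 rose and CCR2 fell in all NB4 pairs, and NFKB2 was low in number 2 of NB4 in both groups.

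The genes whose pattern over the 12 samples was most like that of CXCL8, among the 9943 genes that averaged 1 FPKM or more, were HECA, MALT1, TAGAP, PELI1 and IQGAP3, with a Pearson r of log2 values of 0.97, 0.96, 0.95, 0.95 and 0.95. For CCL2 they were TUBB4B, CYP1B1, SDC2, NT5DC2 and ARHGEF40, with r between 0.99 and 1.00. The 12 points share lines and treatments, and for CCL2 they fall into the 2 lines, so these values only rank the genes.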

How the data were processed

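The authors deposited 1 FPKM value per gene symbol for each of 12 mRNA-seq samples (poly(A) selection, TruSeq Stranded kit). The submitters' processing notes name Trimmomatic, HISAT2, Cufflinks, HTSeq and hg38, without roles or settings, and whether strand was used in counting is not given in the sources used here. Of the deposited FPKM, 632 lie above 0 and below 0.0001, so they were estimated and not whole reads, and the depth is unknown. Symbols turned into dates (27 per file) were left out, which left 20003 genes.

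From these values log2(FPKM + 0.1) was fitted across all genes that averaged 0.1 FPKM or more, using limma (version 3.58.1, under R version 4.3.3) with moderation along a mean-variance trend, and Benjamini-Hochberg adjustment over all genes tested. A call needed an adjusted p below 0.05 and a change of 0.58 or more in log2 size (1.49-fold), the fold limit of the study's methods, and for the interaction the adjusted p alone. The sources name no test for the sequencing. An exact permutation test of 3 against 3 cannot go below 0.10. The fits were tested on simulated data.

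Same-numbered samples were taken as pairs because their deviations from the group means correlated across genes in every pair, at 0.35, 0.62 and 0.20 in NB4 and 0.22, 0.16 and 0.40 in Kasumi-1 (Pearson r over genes, which are not independent). The highest correlation between differently numbered samples was 0.22 in NB4, above that of pair 3, and 0.10 in Kasumi-1. Over genes of at least 5 FPKM the lowest pair in NB4 was at 0.44 and the highest other correlation at 0.29. The labels give the number but do not say what it marks, so each fit was run without and with it as a block.

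The members and gene lists were chosen with earlier results of these data known. Named one by one are the members and their copies, the receptors of the members (1 gene is not reported here), genes of the 3 lists (other ligands, receptors, regulators) called in either line, and the 5 genes most like CXCL8 and CCL2. Alternatives were pseudocounts of 1 and 0.01, no filter, a minimum of 1 FPKM, equal sums, median centring, quantile normalization, no trend, the block alone and with scalings, and leaving out samples or pairs. The block with quantile normalization and the block without the filter were added after seeing the data. Promoter sequences come from RefSeq (GRCh38.p14), shared stretches from GENCODE transcripts, with Python version 3.11.15 and Biopython version 1.88. Proteins, pathway enrichments and the study's other assays were not analysed here.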

Additional observations from a re-analysis of the deposited data

Results flagged for a closer look

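None of the 9 chemokines had a change with OGP46 that differed between the lines past the threshold, but 6 genes of the receptor and regulator lists did when same-numbered samples were compared. For these, the log2 fold change in NB4 minus that in Kasumi-1 had an adjusted p below 0.05 in limma's interaction test with the block, and none of them passed without it. Of all 12309 genes tested, 1.93% passed with the block, and the lists were chosen with earlier results of these data known. For IL1B the difference was 1.55 (adjusted p = 0.0342), for ZFP36L1 1.16 (0.0283), for TNF 0.96 (0.0209), for NFKB2 0.82 (0.0387) and for ZFP36 0.75 (0.0301), each higher in NB4. For the CCL2 receptor CCR2 it was −1.44 (0.0164), lower in NB4. The level of CCR2 in Kasumi-1 was 0.119 ± 0.125 FPKM without and 0.219 ± 0.142 FPKM with OGP46 (SD, n = 3), and that of TNF 0.368 ± 0.219 and 0.271 ± 0.153 FPKM, so both differences rest on low values in that line. With median centring added to the block, CCR2, ZFP36 and TNF passed and the other 3 did not.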

How the results depend on the processing

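The number of genes called in NB4 was 183 and moved to 117 with pseudocount 1, 4 without the filter, 0 with equal sums, 0 with median centring, 0 with quantile normalization, 4 without the trend, 730 with the replicate block, 391, 448 and 397 with the block and median centring, equal sums or quantile normalization, 241 with the block and no filter, 878, 757 and 658 with the block and pair 1, 2 or 3 left out, and 0 to 396 with 1 sample left out. In Kasumi-1 it was 4 and moved to 2 with pseudocount 1, 0 without the filter, 24 with a minimum of 1 FPKM, 18, 18 and 11 with equal sums, median centring or quantile normalization, 0 without the trend, 73 with the replicate block, 93, 99 and 81 with the block and median centring, equal sums or quantile normalization, 0 with the block and no filter, 68, 112 and 155 with the block and pair 1, 2 or 3 left out, and 0 to 11 with 1 sample left out. For the interaction it was 0 and moved to 14 with pseudocount 1, 237 with the replicate block, 144, 129 and 138 with the block and median centring, equal sums or quantile normalization, and 0 to 1 with 1 sample left out. Dropping OGP46 sample 2 raised the NB4 count to 396, and dropping each of the other 5 samples lowered it to 2 or fewer. The block with quantile normalization or without the filter was chosen after seeing the data. The 6449 genes that differed between the control lines were 6366 to 6449 with 1 sample left out.

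Of 459 settings of single members without the block, 420 kept direction and call, 10 gained and 10 lost a call, and 19 turned in direction. With the block, none of 132 turned, 82 were as without it and 50 gained a call. Part of this was fixed in advance. With all samples the block alone leaves each log2 fold change as it is, so it cannot turn a direction. Without the block no member was called in these comparisons, so no call could be lost. A call lost among the blocked settings, such as that of CXCL2 with median centring, counts here as unchanged. Leaving out 1 sample gave NB4 log2 fold changes of −2.23 to 0.43 for CXCL10, −0.57 to 1.76 for CCL3 and −0.76 to 1.91 for CCL4, and interactions of −0.26 to 1.13 for CXCL8, −0.71 to 0.088 for CXCL1, −0.43 to 0.26 for CXCL3, −2.04 to 0.61 for CXCL10, −0.57 to 1.76 for CCL3 and −0.76 to 1.91 for CCL4. With pseudocount 0.01 the interaction was 0.54 for CXCL1 and 0.016 for CXCL3. Where 1 of a pair of samples is left out without the block, the group keeps 2 samples. The cause of these shifts was not tested. With 3 samples a group and no read counts, values below about 1 FPKM have no known counting error. In NB4 these include CXCL1, CXCL2 and CXCL3, the CXCL16 controls, and the samples numbered 2 for CXCL10, CCL3 and CCL4. In Kasumi-1 they include the controls of CXCL1 and CXCL3.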
